A study of Mus musculus with 16 samples.

Results

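The genes described here are the 7 genes of MHC class II antigen presentation that were chosen by name in the deposited expression table. They are H2-Aa, H2-Ab1, H2-Eb1, Cd74, Ciita, H2-DMa and H2-DMb1. All 7 were found among the 43346 genes of the table, each passed the low-count filter of the test, and none was left out. RNA was sequenced in 16 libraries of lung endothelial cells (ECs, which form the inner lining of vessels), sorted from FVB mice after perfusion. Young Sham (n = 5) were 2-month-old mice given saline, and Young Bleo (n = 4) were 2-month-old mice given bleomycin, which damages the alveolar epithelium and leads to fibrosis. Aged Sham (n = 3) and Aged Bleo (n = 4) were 18-month-old mice given the same treatments. Per the study's methods, saline or about 1 U/kg of bleomycin was delivered into the trachea, lungs were taken on day 30, and all mice carried a GFP reporter driven by the collagen gene Col1a1. The sort kept CD31+ cells and removed cells with CD45 (a leukocyte protein), with EpCAM (an epithelial one) or with that reporter. Per the study, each library stands for 1 mouse, so the p-values measure the spread between mice together with that of sorting and sequencing.

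MHC class II molecules hold peptides from proteins taken up by a cell and display them to CD4+ T cells. Dendritic cells, macrophages and B cells are the best known class II cells, and lung capillary ECs also carry class II at rest. H2-Aa encodes the α chain of the I-A molecule and H2-Ab1 its β chain, while H2-Eb1 encodes the β chain of I-E. Cd74, the invariant chain, escorts new class II molecules to endosomes and blocks their groove until proteases cut it. H2-DMa and H2-DMb1 encode the chains of H2-DM, which exchanges the remaining Cd74 fragment for other peptides. Ciita, the class II transactivator, is the coactivator on which transcription of the other 6 depends, and it is inducible by interferon gamma. Ptprc encodes CD45, the leukocyte surface protein that the sort excluded, and its transcript is given beside the members.

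In the deposited coordinates (mm10), 5 members lie in the MHC region of chromosome 17. H2-DMa spans 34135182 to 34139101, H2-DMb1 34153072 to 34160230, H2-Ab1 34263209 to 34269418, H2-Aa 34282744 to 34287827 and H2-Eb1 34305877 to 34316199. Cd74 lies outside this region, as does Ciita, at 10488178 to 10527564 of chromosome 16. The start of H2-Eb1 lies under an annotated antisense gene, and no strand setting is stated, so reads of that overlap cannot be told apart. H2-DMb1 shares 22.7% of its 50-base transcript words with its neighbour H2-DMb2, which leaves the split between this pair uncertain, whereas the other 6 members share 0% to 0.488% with any other gene.

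Class II promoters carry a conserved module in which an X box, bound by the RFX complex, stands a fixed distance before a Y box, the reversed CCAAT element bound by NF-Y. Ciita binds no DNA of its own and is recruited by these factors. The windows below show this arrangement for H2-Eb1 and H2-DMb1, both called in Aged Bleo against Young Sham, and for H2-DMb2, the neighbour called with them. H2-Aa is shown beside them for its Y box. They cover positions -130 to -31 from the RefSeq start on the gene's strand (GRCm38.p6, chromosome 17), and capitals mark the letters searched for: ACNGATG from the X box, TGATTGG from the Y box and, in H2-Aa, TGACGTCA, a palindromic cyclic-AMP response element that can form the second part of the X box.
H2-Aa, 34287854 to 34287953, minus strand: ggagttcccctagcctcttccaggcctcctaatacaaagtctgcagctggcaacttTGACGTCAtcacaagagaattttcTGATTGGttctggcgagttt
H2-Eb1, 34305737 to 34305836, plus strand: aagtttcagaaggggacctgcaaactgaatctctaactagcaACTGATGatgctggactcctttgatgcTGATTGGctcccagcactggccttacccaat
H2-DMb1, 34153061 to 34153160, plus strand: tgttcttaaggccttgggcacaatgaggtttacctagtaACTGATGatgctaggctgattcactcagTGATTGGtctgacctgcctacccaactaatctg
H2-DMb2, 34145119 to 34145218, plus strand: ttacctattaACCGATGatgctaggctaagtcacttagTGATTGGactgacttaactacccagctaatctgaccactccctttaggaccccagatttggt

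On both strands, ACNGATG was found in 9.85%, TGATTGG in 7.82% and TGACGTCA in 1.79% of 32851 RefSeq promoter windows of 300 bases. The ordered pair, with starts 25 to 31 bases apart on 1 strand, was found in 8 promoters or 0.0244%, and these 8 included H2-Eb1, H2-DMb1, H2-DMb2 and H2-Eb2. The spacing was set after these sequences had been read, so the share describes the windows and tests nothing. In H2-Eb1 the X-box letters began at -88 and the Y-box letters at -61, and in H2-DMb1 at -91 and -63. H2-Aa held the Y-box letters at -50 and TGACGTCA at -74, without the pair. The window of H2-DMa held none of these letters, which says only that they are not in it. H2-Ab1 and Ciita had no promoter entry, and Cd74 was not searched.

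Without injury, Cd74 and both I-A chains were abundant in the sorted cells, the DM chains lower, and H2-Eb1 and Ciita low. Per length, as the deposited FPKM (fragments scaled to transcript length and library size), Cd74 averaged 688 in Young Sham, H2-Ab1 224, H2-Aa 112, H2-DMa 26, H2-DMb1 20, H2-Eb1 3.3 and Ciita 1.43. By FPKM, Cd74 ranked between 3 and 76 among all genes in the 16 libraries, with a median rank of 11.5. This order of the 7 was the same in all 4 group means. In each group the ranges of H2-DMa and H2-DMb1 overlapped, as did those of H2-Eb1 and Ciita, while H2-Aa lay above H2-DMa, and H2-DMb1 above H2-Eb1, in every library. The ratio of H2-Ab1 to H2-Aa, the β and α chains of I-A, stayed between 1.85 and 2.29 in all 16 libraries (median 2.03). In contrast, the FPKM of H2-Ab1 was 43 to 120 times that of H2-Eb1, the β chain of I-E. FVB mice carry another MHC haplotype than the C57BL/6 reference genome, so reads of these polymorphic genes may have been lost in alignment, which is shared by all groups and was not tested.

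The libraries held 20.9 to 71 mega-counts in genes, and endothelial markers were high in all of them: Pecam1, which encodes CD31, ranged from 48835 to 88941 normalized counts (counts divided by DESeq2 size factors). Markers of other lung cells were also present. The summed level of 12 macrophage genes was 9469 to 11385 in Young Sham, 11882 to 32294 in Aged Sham, 22805 to 57778 in Young Bleo and 32513 to 205338 in Aged Bleo. Lyz2, a lysozyme of macrophages and type II epithelium, averaged 4205 in Young Sham and 80903 in Aged Bleo, and Itgam, an integrin of myeloid cells, was at 0 to 2.05 in Young Sham. Lyz2 made up most of the macrophage sum in every bleomycin library, from 16608 of 22805 in Young Bleo 20 to 161722 of 205338 in Aged Bleo 1. B cell genes summed to 88.2 to 1103 in 14 libraries, to 9462 in Aged Sham 13 and to 4989 in Aged Bleo 3. The sum of 6 T cell genes stayed at 28.7 to 490 in 15 libraries and was 1552 in Aged Bleo 5, and Cd4 was at 0 in both young groups.

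**Figure D1:**
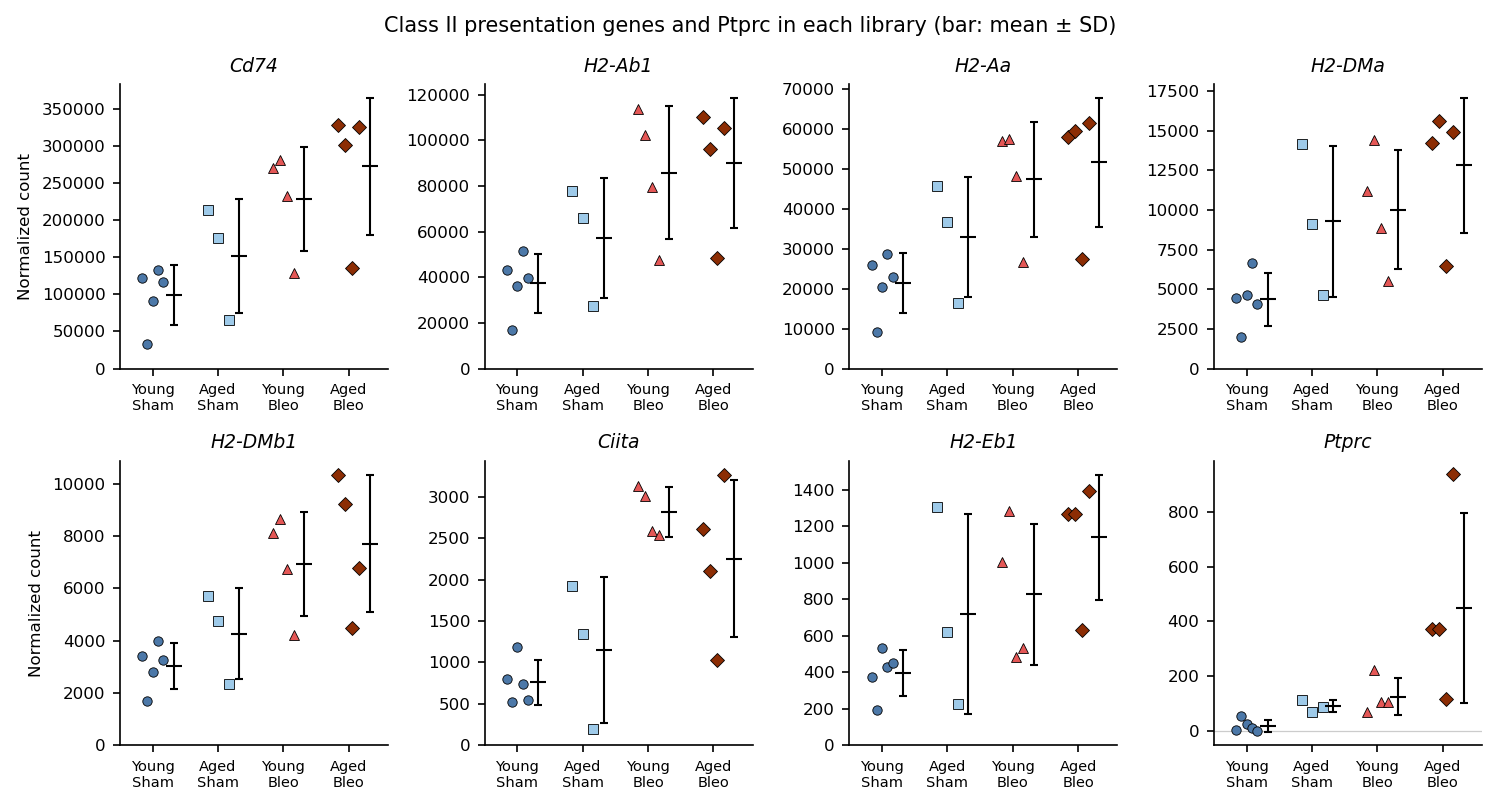
Normalized counts of the 7 members and of Ptprc in each library, by group (linear axes; points are libraries, the bar beside them is the mean ± SD). Ciita in Young Bleo (2544 to 3135) lies above all Young Sham libraries (516 to 1191), while Aged Bleo 3 lies below the other Aged Bleo libraries for each of the 7 members.

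In young mice, class II genes were higher 30 days after bleomycin than after saline. Of the 7 members, 6 were called higher in Young Bleo than in Young Sham, and none lower, by DESeq2, which required adjusted p ≤ 0.05 and a log2 fold change of 0.5 or more in size. Over all 18515 genes tested, 7.57% were called higher. The median log2 fold change was 1.20 over the members and 0.01 over all genes. In edgeR's quasi-likelihood test 5 members and 5.69% of all genes were called higher. In bulk RNA, a larger number of class II cells and more RNA per cell cannot be told apart.

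Ciita had the highest fold change of the 7. Its normalized counts were 803, 516, 1191, 738 and 544 in Young Sham 21 to 25 and 3135, 3017, 2590 and 2544 in Young Bleo 17 to 20. Every bleomycin library was thus above every saline library. The log2 fold change was 1.90 (SE 0.45), or 3.72-fold, with adjusted p = 6.2e-04 in DESeq2 and 0.016 in edgeR. Ciita was called in all 16 fits that left out 1 library.

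The other 6 members had log2 fold changes of 1.06 to 1.21. H2-DMb1, the peptide editor's β chain, had 3404, 1681, 2809, 4001 and 3238 normalized counts in Young Sham and 8131, 8663, 6736 and 4222 in Young Bleo, again with no overlap. Its log2 fold change was 1.20 (SE 0.315, DESeq2 adjusted p = 0.0024). H2-DMa averaged 4361 ± 1664 in Young Sham (SD, n = 5) and 9997 ± 3750 in Young Bleo (SD, n = 4), a log2 fold change of 1.20 (SE 0.371, DESeq2 adjusted p = 0.012). The lowest Young Bleo library (5525) lay below the highest Young Sham library (6665) for H2-DMa.

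For Cd74 the Young Sham libraries had 121598, 32732, 91710, 133377 and 116217 normalized counts, and the Young Bleo libraries 270864, 282074, 233449 and 128610. All but Young Bleo 20 lay above the saline range. The log2 fold change was 1.21 (SE 0.393), called by DESeq2 (adjusted p = 0.019) and not by edgeR (adjusted p = 0.059). The I-A chains behaved alike, with log2 fold changes of 1.20 (SE 0.354) for H2-Ab1 and 1.14 (SE 0.351) for H2-Aa and DESeq2 adjusted p-values of 0.0082 and 0.011. H2-Eb1 was not called (log2 fold change 1.06, SE 0.431, DESeq2 adjusted p = 0.074). Its Young Bleo libraries fell apart into 1007 and 1286 in libraries 17 and 18 and 483 and 535 in libraries 19 and 20, beside 194 to 535 in Young Sham.

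These calls depended on single libraries. Without Young Bleo 17 only Ciita and H2-DMb1 were called, without Young Bleo 18 Ciita, H2-DMb1 and H2-Ab1, and without Young Bleo 19 the call of Cd74 was lost (adjusted p = 0.051). H2-Eb1 was called in 3 of the 16 fits without 1 library. Without both Young Sham 22, which was the lowest Young Sham library for each member, and Young Sham 25, which had no Ptprc count, Ciita and H2-DMb1 were called, and the 7 log2 fold changes ran from 0.89 to 1.63.

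**Figure D2:**
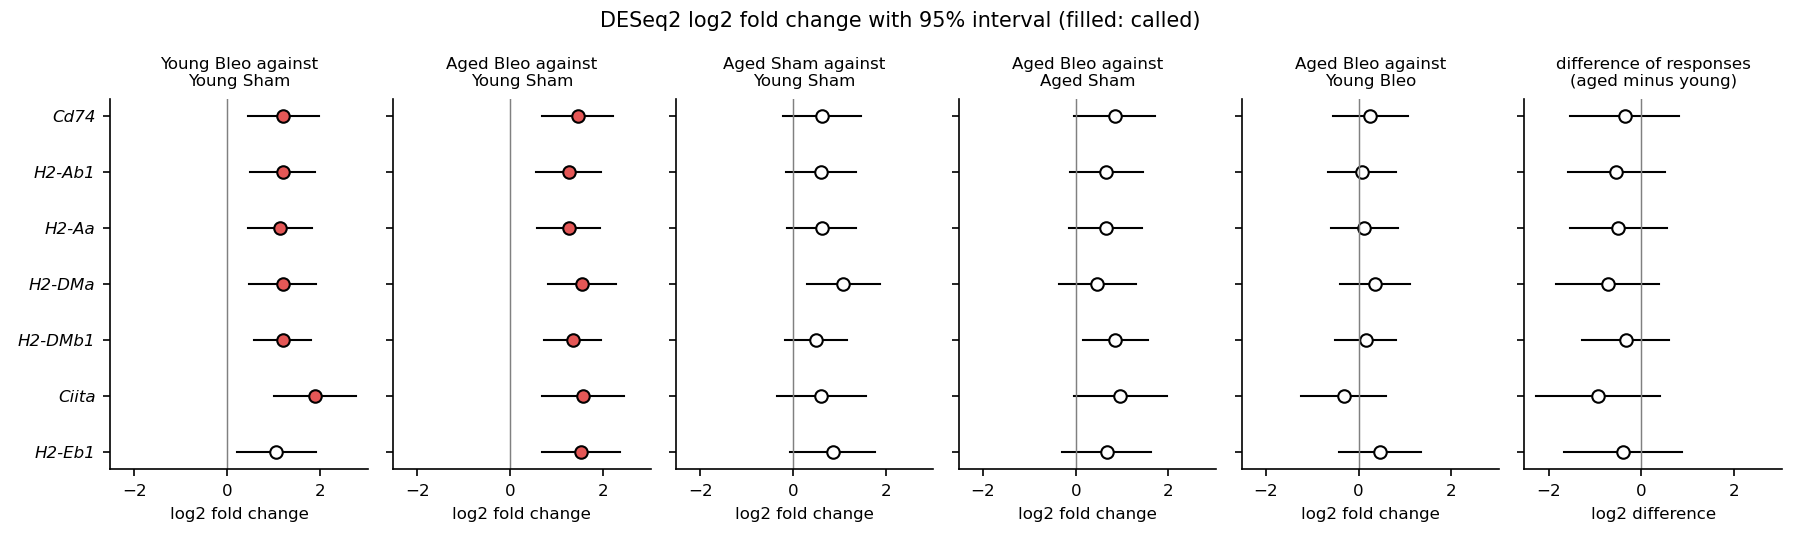
Log2 fold change of each member in the 5 pairwise comparisons, and, in the last panel, the response in aged minus that in young mice (log2), with 95% intervals from DESeq2 (filled points were called). Called points stand only in the panels of Young Bleo (6) and Aged Bleo (7) against Young Sham, and the last panel runs from -0.93 to -0.34 with every interval spanning 0.

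Aged injured mice were compared with young uninjured mice, as in the study, and with aged uninjured mice. Against Young Sham, all 7 members were called higher in Aged Bleo by DESeq2, while 6.58% of the genes tested were called higher. The log2 fold changes lay between 1.27 and 1.57 (median 1.46), and edgeR called 6, with 4.2% of all genes called higher. This comparison shares the Young Sham libraries with the previous one, so the outcomes are not independent.

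H2-DMb1 again did not overlap between groups, with 10362, 9236, 4478 and 6771 normalized counts in Aged Bleo 1, 2, 3 and 5 (log2 fold change 1.35, SE 0.315, DESeq2 adjusted p = 6.4e-04). Cd74 reached 328334, 301545, 135538 and 326211, all above the Young Sham range. Its log2 fold change was 1.46 (SE 0.393, DESeq2 adjusted p = 0.0043), or 2.75-fold. H2-Eb1 also lay above the Young Sham range, at 1267, 1269, 631 and 1393 (log2 fold change 1.53, SE 0.431, DESeq2 adjusted p = 0.0072). The share of all genes without overlap between groups was not counted. H2-DMa was called with a log2 fold change of 1.55 (SE 0.371, DESeq2 adjusted p = 8.8e-04) although Aged Bleo 3 (6483) lay within the saline range. For Ciita, with 2610, 2102, 1025 and 3274, DESeq2 gave 1.57 (SE 0.45, adjusted p = 0.0082) and edgeR an adjusted p of 0.051. H2-Ab1 and H2-Aa both had a log2 fold change of 1.27.

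Leaving out 1 library at a time ended a single call, that of Ciita without Aged Bleo 5 (adjusted p = 0.053). Aged Bleo 1 and 2 had the largest macrophage sums of the series (205338 and 123090). Without both of them none of the 7 was called by DESeq2, with log2 fold changes of 0.90 to 1.51 and adjusted p-values of 0.130 to 0.259 from the 2 remaining Aged Bleo libraries, while all 7 had an unadjusted p under 0.05. Without both Young Sham 22 and 25, 3 were called: Cd74, H2-DMa and H2-DMb1.

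No member passed the test between the aged groups or between ages. For Aged Sham against Young Sham, DESeq2 called 0 of 7 members and 3.35% of all genes. The log2 fold changes were 0.50 to 1.09. edgeR called 0 members (0.862% of all genes), limma on FPKM called 0 (1.14%), and 1 member, H2-DMa, had an unadjusted p under 0.05 in each of the 3 tools. H2-DMa was at 14140, 9117 and 4620 normalized counts in Aged Sham 13, 14 and 15, and its log2 fold change was 1.09 (95% interval 0.30 to 1.88, DESeq2 adjusted p = 0.118). It was called without Aged Sham 15 (adjusted p = 0.029) or without Young Sham 24 (0.045). Without Aged Sham 13 its log2 fold change was 0.66 (adjusted p = 0.580), and those of the 7 members were 0.02 to 0.66. In Aged Sham, library 13 was the highest and library 15 the lowest for all 7 members, and Ciita spanned 191 to 1926.

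For Aged Bleo against Aged Sham, 0 of 7 members and 5.83% of all genes were called by DESeq2, while edgeR called 0 (0.797%) and limma on FPKM 0 (3.01%). The log2 fold changes were 0.46 to 0.96. DESeq2 and edgeR gave 1 member, H2-DMb1, an unadjusted p under 0.05, and limma on FPKM gave 5. The interval of H2-DMb1 ran from 0.15 to 1.56 (DESeq2 adjusted p = 0.147), and it was called without Aged Bleo 3 (adjusted p = 0.044). The values rested on single Aged Sham libraries: the 7 log2 fold changes were 0.14 to 0.56 without Aged Sham 15 and 0.90 to 1.55 without Aged Sham 13, with no call in either. The 95% interval for Cd74 was -0.03 to 1.72, which spans both 0 and the log2 fold change of 1.21 seen in young mice. For Aged Bleo against Young Bleo, 0 of 7 members and 1.03% of all genes were called, none had an unadjusted p under 0.05 in DESeq2, edgeR or limma, and the log2 fold changes ran from -0.32 (Ciita) to 0.46 (H2-Eb1).

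The test of whether the response to bleomycin differed with age also called 0 of 7 members (0.381% of all genes). The difference of responses, aged minus young, was -0.93 for Ciita (95% interval -2.27 to 0.41), -0.36 for Cd74 (-1.53 to 0.81) and -0.34 for H2-DMb1 (-1.28 to 0.59), and no member had an unadjusted p under 0.05 in DESeq2, edgeR or limma. All 7 intervals spanned 0. Without Aged Sham 13 the 7 differences were -0.35 to 0.36, and without Aged Sham 15 they were -1.44 to -0.64, with no call in either.

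The members moved together across libraries. Over the 16 libraries, Pearson's r of log2(normalized count + 1) was 1.00 for H2-Aa with H2-Ab1 and with Cd74, and lowest (0.75) for Ciita with H2-DMa. After removal of the group means, r ran from 0.68 (Ciita with H2-DMb1) to 0.99. These values are descriptions over libraries that share their scaling, and neither depth nor cell makeup was taken out. In each group the same library was lowest for most members, which was Young Sham 22, Aged Sham 15 and Aged Bleo 3 for all 7 and Young Bleo 20 for 6. Ciita was the loosest in step with its targets: the FPKM ratio of Cd74 to Ciita ran from 188 to 1288, against 2.27 to 3.63 for Cd74 to H2-Ab1. The ratio of the DM chains, H2-DMa to H2-DMb1, was 1.07 to 1.51 in Young Sham and 1.73 to 2.24 in Aged Sham, with 1.18 to 1.51 in Young Bleo and 1.24 to 2 in Aged Bleo, which overlap, and no difference was tested.

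Ptprc was low in every library and was also called higher in both bleomycin groups against Young Sham. Its normalized counts were 2.83, 54.4, 26.7, 10.5 and 0 in Young Sham 21 to 25, 114, 70.4 and 89.6 in Aged Sham, 68.4, 224, 105 and 107 in Young Bleo and 371, 371, 117 and 938 in Aged Bleo. Every library of the other 3 groups lay above the Young Sham range. The log2 fold change against Young Sham was 2.74 in Young Bleo (SE 0.783, DESeq2 adjusted p = 0.0059) and 4.57 in Aged Bleo (SE 0.781, adjusted p = 7.1e-07), larger in size than that of any member. The Young Bleo call was lost without Young Bleo 18 (2.31, adjusted p = 0.055). In Aged Sham it was 2.27 (SE 0.853, adjusted p = 0.127). For Aged Bleo against Aged Sham Ptprc was not called (2.30, SE 0.876, adjusted p = 0.096). Young Sham 25 had 0 Ptprc counts, which allows up to 3 counts, beside 116217 normalized counts of Cd74 and 39625 of H2-Ab1.

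The members were therefore set against Ptprc in each library, as the mean over the 7 members of log2((member + 1)/(Ptprc + 1)). This ratio (mean ± SD) was 9.28 ± 2.64 in the 5 Young Sham libraries, 6.55 ± 0.979 in the 3 of Aged Sham, 6.93 ± 0.748 in the 4 of Young Bleo and 5.46 ± 0.78 in the 4 of Aged Bleo. Between Young Bleo and Young Sham it differed by -2.35 (2-sided exact permutation test, p = 0.143, adjusted 0.200) and between Aged Bleo and Young Sham by -3.81 (exact p = 0.032, adjusted 0.079). Between Aged Bleo and Young Bleo it differed by -1.47 (exact p = 0.029, adjusted 0.079). Without 1 library these differences ranged from -3.24 to -1.52, from -4.7 to -2.98 and from -1.7 to -1.1, and that of Aged Bleo and Aged Sham (-1.09) from -1.65 to -0.72. None of the 5 comparisons passed after adjustment over the 5, and with 4 against 3 libraries the smallest exact p is 0.029.

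Other leukocyte genes were also called. Of 5 pan-leukocyte genes, 3 were called higher in Young Bleo, 5 in Aged Bleo and 3 in Aged Sham, each against Young Sham, and edgeR called 3, 5 and 0. In Aged Sham the 3 were Laptm5, Coro1a and Cd52, where 0 of the 7 members were called, and in Young Bleo Laptm5 and Coro1a were not called. The Aged Sham call of Cd52 was lost without Aged Sham 13 (log2 fold change 1.73, DESeq2 adjusted p = 0.158). Cd52, a small leukocyte surface protein, had a log2 fold change of 1.98 in Young Bleo (SE 0.572, DESeq2 adjusted p = 0.0063, and 0.061 without Young Bleo 17) and 3.73 in Aged Bleo (SE 0.569, adjusted p = 1.5e-08). Of 12 macrophage genes, 4 were called higher and 1 lower in Young Bleo, and 7 higher and 0 lower in Aged Bleo. In Aged Bleo against Aged Sham 5 of the 12 were called higher (edgeR 2), where no member was called. Cd68, a lysosomal protein of macrophages, was at 53.3 to 128 normalized counts in Young Sham, 586 to 3203 in Young Bleo and 914 to 7891 in Aged Bleo. Its log2 fold changes were 4.60 (SE 0.685) and 5.57 (SE 0.685), and Lyz2 had 3.07 and 4.27. Mertk, a receptor for dying cells that ECs also express, fell by 1.33 on the log2 scale in Young Bleo (SE 0.31, adjusted p = 4.5e-04).

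The order of the libraries was the same for Cd74 and the macrophage sum in Young Bleo and not in the other 3 groups. In Young Bleo the macrophage sums were 57778, 54212, 40391 and 22805 in libraries 18, 17, 19 and 20, beside 282074, 270864, 233449 and 128610 for Cd74. H2-Aa, H2-DMa and H2-DMb1 had this order too, while Ciita, H2-Ab1 and H2-Eb1 had other orders. Lyz2 followed the order of the sum. Cd68 was at 3203, 2801, 1569 and 586 in Young Bleo 17 to 20, the order of Ciita and H2-Ab1, and Chil3 was at 4599, 1797, 4675 and 869. Aged Bleo 5, with a macrophage sum of 32513 and the highest Ptprc (938) and T cell sum (1552) of the series, had 326211 normalized counts of Cd74 and the highest Ciita of the series (3274). Aged Bleo 1, with a sum of 205338, had 328334 of Cd74 and 2610 of Ciita. Aged Sham 13 had a macrophage sum of 11882, with 214425 of Cd74 and the highest B cell sum, 9462. Mertk averaged 5111 in Young Sham and so made up much of the Young Sham sums, and in Aged Sham 13 Lyz2 was at 7022 (2724 to 4799 in Young Sham) and Cd68 at 208 (53.3 to 128). Alveolar epithelial genes summed to 35802 in Aged Sham 13 and 38275 in Aged Bleo 5, against 6197 to 23658 in Young Sham, but also to 37728 in Young Bleo 19 and to 8012 in Aged Bleo 2. Within groups, r with the members' mean was -0.04 for Ptprc, 0.33 for Lyz2 and 0.55 for Cd68, against 0.57, 0.76 and 0.82 over all 16 libraries. For the other leukocyte genes Laptm5, Coro1a and Cd52 it was 0.22, 0.29 and 0.57 within groups, for Cd79a of B cells 0.57 and for Cd3e of T cells 0.01. For the cathepsin Ctss it was 0.61 within groups. For Clec4n, a myeloid lectin gene picked for its likeness to the members, it was 0.83. The part of macrophage, other leukocyte or epithelial RNA in the members' values was not tested.

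**Figure D3:**
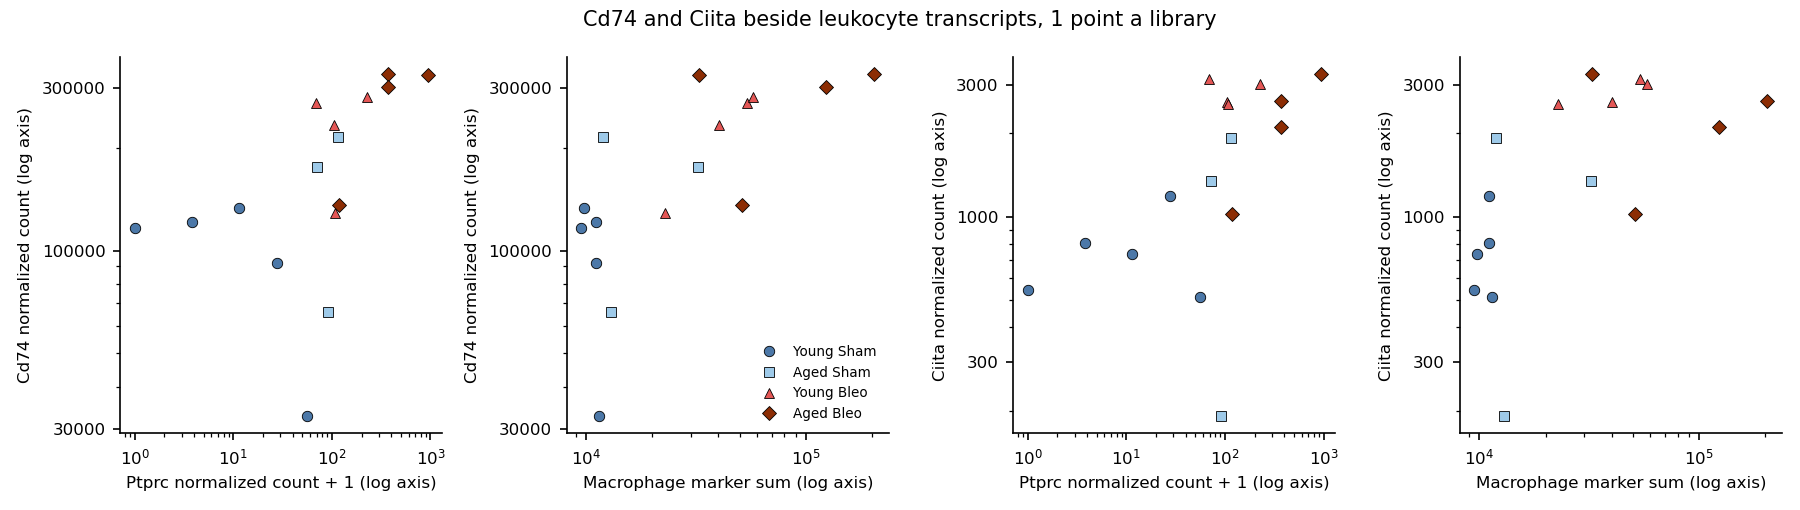
Cd74 and Ciita (normalized counts, log axes) against Ptprc + 1 and against the sum of 12 macrophage genes (log axes), with 1 point per library and symbols by group. The 5 Young Sham libraries lie at macrophage sums of 9469 to 11385, while Cd74 among them ranges from 32732 to 133377.

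The endothelial markers did not move as a set. Of 8 genes, 1 was called higher and 2 lower in Young Bleo against Young Sham (median log2 fold change -0.03). In Aged Bleo 2 were called higher and 2 lower (median -0.11). The sum of the 8 was 493408 to 546336 in Young Sham, 445553 to 483127 in Aged Sham, 295227 to 459817 in Young Bleo and 316977 to 450969 in Aged Bleo. Cldn5 and Kdr had the highest Young Sham means in this sum (220195 and 105456). Kdr, the VEGF receptor that is highest in lung capillaries, fell by 1.64 on the log2 scale in Young Bleo (SE 0.398, DESeq2 adjusted p = 8.1e-04) and by 1.26 in Aged Bleo (SE 0.398, adjusted p = 0.02, edgeR 0.090). In Aged Bleo the call was lost without Aged Bleo 1 (adjusted p = 0.119), Aged Bleo 2 (0.115) or Young Sham 22 (0.067). Its r with the members' mean was -0.84 over 16 libraries and -0.66 within groups. Cldn5, a tight junction protein, was also called lower in both, and Erg, an endothelial transcription factor, was called higher in both. The Erg call in Aged Bleo was lost without Aged Bleo 2 (log2 fold change 0.48) or Young Sham 24 (0.45). Vwf, of the same list, was called higher in Aged Bleo alone, with means of 29284 in Young Sham and 51965 in Aged Bleo. Over the 7 dendritic cell genes with an adjusted p, the median log2 fold change was -0.65 in Young Bleo and 0.55 in Aged Bleo. Of this list, Itgax was called higher in both (log2 fold changes 3.55 and 4.38), Clec9a lower in Young Bleo and Batf3 higher in Young Bleo. The last 2 calls were lost without Young Bleo 17 (adjusted p = 0.061 and 0.08), and that of Batf3 also without Young Bleo 18 (0.096). Zbtb46, a dendritic cell factor that ECs also express, was at 2347 to 7204 in all libraries and was not called. Of the other marker lists, no B or T cell gene was called in a bleomycin group against Young Sham, and of 7 alveolar epithelial genes 1 was called in each, Ager of type I cells, which was lower, while the list's median log2 fold change was 0.10 in Young Bleo and 0.37 in Aged Bleo. The Ager call in Young Bleo was lost without Young Bleo 17 (DESeq2 adjusted p = 0.051). Of 5 fibroblast genes, 3 were called lower in Aged Bleo (edgeR 2). In Aged Bleo, Dcn, a matrix proteoglycan, fell by 1.28 on the log2 scale (SE 0.287, DESeq2 adjusted p = 3.5e-04), Col1a2, a collagen chain, fell by 1.25 (SE 0.325, adjusted p = 0.0028) and Lum, another matrix proteoglycan, fell by 2.09 (SE 0.665, adjusted p = 0.021, edgeR 0.102), the last not called without Aged Bleo 1 or 5 or without Young Sham 21, 23 or 24 (adjusted p = 0.061 to 0.110). In Young Bleo these genes were not called, with log2 fold changes of 0.36, -0.17 and 0.24.

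The other genes of the pathway were read from 5 lists. Of 5 further class II genes, 2 were called higher in both Young Bleo and Aged Bleo against Young Sham. H2-DMb2, the alternative β chain of H2-DM, had log2 fold changes of 1.17 (SE 0.317, DESeq2 adjusted p = 0.0031) and 1.44 (SE 0.317, adjusted p = 2.6e-04). H2-Ea-ps, annotated as the I-E α chain pseudogene in the reference genome, had 1.38 (SE 0.389, adjusted p = 0.005) and 1.58 (SE 0.389, adjusted p = 0.0014). H2-Oa, H2-Ob and H2-Eb2, the first 2 of which encode the DM inhibitor of B cells, stayed at or under 93.9 normalized counts in every library and were not called.

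The DNA-binding factors of the module did not pass. For Rfx5, Rfxap, Rfxank, Nfya, Nfyb, Nfyc and Creb1, 0 of 7 were called in each of the 5 comparisons by DESeq2, edgeR or limma on FPKM. In Young Bleo against Young Sham none had an unadjusted p under 0.05 in any of the tools, and in Aged Bleo against Young Sham 1 did, Rfxank, in DESeq2. Rfx5, a subunit of the RFX complex, had means ± SD of 546 ± 113 in the 5 Young Sham, 561 ± 119 in the 4 Young Bleo and 548 ± 117 in the 4 Aged Bleo libraries. The 95% interval of its log2 fold change in Young Bleo was -0.38 to 0.46.

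Of 7 genes of interferon gamma signalling, the receptor chains changed in opposite directions. Ifngr1, the ligand-binding chain, was called higher in Young Bleo (log2 fold change 1.12, SE 0.307, DESeq2 adjusted p = 0.0036) and in Aged Bleo (1.05, SE 0.307, adjusted p = 0.01). The Aged Bleo call was lost without Aged Bleo 1 (0.68, adjusted p = 0.155) or without Aged Bleo 2 (0.94, 0.069), and Aged Bleo 5 (13787) lay within the Young Sham range of 12237 to 14020. It averaged 13052 ± 656 in Young Sham (SD, n = 5) and 28424 ± 7285 in Young Bleo (SD, n = 4). Ifngr2, the signalling chain, fell by 1.13 on the log2 scale in Young Bleo (SE 0.196, adjusted p = 1.0e-06) and by 0.81 in Aged Bleo (SE 0.196, adjusted p = 0.0011). Irf1, a factor through which the receptor acts on Ciita, was not called, with log2 fold changes of -0.48 in Young Bleo and -0.41 in Aged Bleo. Ifng itself was at 0 to 5.41 normalized counts in the young groups and reached 55.2 in Aged Bleo.

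Of 8 endosomal proteases and reductases, Ctss, the cathepsin that trims the invariant chain in bone marrow-derived cells, had the largest changes. It was at 124 to 377 normalized counts in Young Sham, 424 to 1019 in Aged Sham, 1169 to 7206 in Young Bleo and 3370 to 22427 in Aged Bleo. The log2 fold changes were 4.33 (SE 0.628, DESeq2 adjusted p = 2.4e-09) and 5.68 (SE 0.628, adjusted p = 5.4e-16) against Young Sham, and 4.10 (SE 0.713, adjusted p = 8.8e-06) for Aged Bleo against Aged Sham. Ctsb and Ctsd, other lysosomal cathepsins, were called higher in Aged Bleo, by 0.88 and 0.72, and without Aged Bleo 1 neither was called (0.62 and 0.43, adjusted p = 0.111 and 0.125). Ctsb was also not called without Aged Bleo 2 (0.73, adjusted p = 0.077). Sppl2a, the protease that removes the last membrane stub of the invariant chain, fell by 0.67 on the log2 scale in Young Bleo (SE 0.138, adjusted p = 4.9e-05). Ctsl, the cathepsin that trims the invariant chain in thymic epithelium, was not called.

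Of 8 genes of costimulation and surface turnover, Icosl, the ligand of ICOS on T cells, was called higher in Young Bleo (log2 fold change 1.12, SE 0.292, DESeq2 adjusted p = 0.002), and Cd274, which encodes PD-L1, fell by 0.87 there (SE 0.3, adjusted p = 0.029, edgeR 0.075). The Cd274 call was lost without Young Bleo 17, 18 or 19 or without Young Sham 23 or 24 (adjusted p = 0.072 to 0.131). Cd86, a ligand of CD28, was at 0 in all sham libraries and reached 131 in Aged Bleo, and it was not called. Cd80, the other ligand of CD28, stayed at or under 34.6. Cd40 was at 1396 to 5297 normalized counts and was not called in any comparison.

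**Figure D4:**
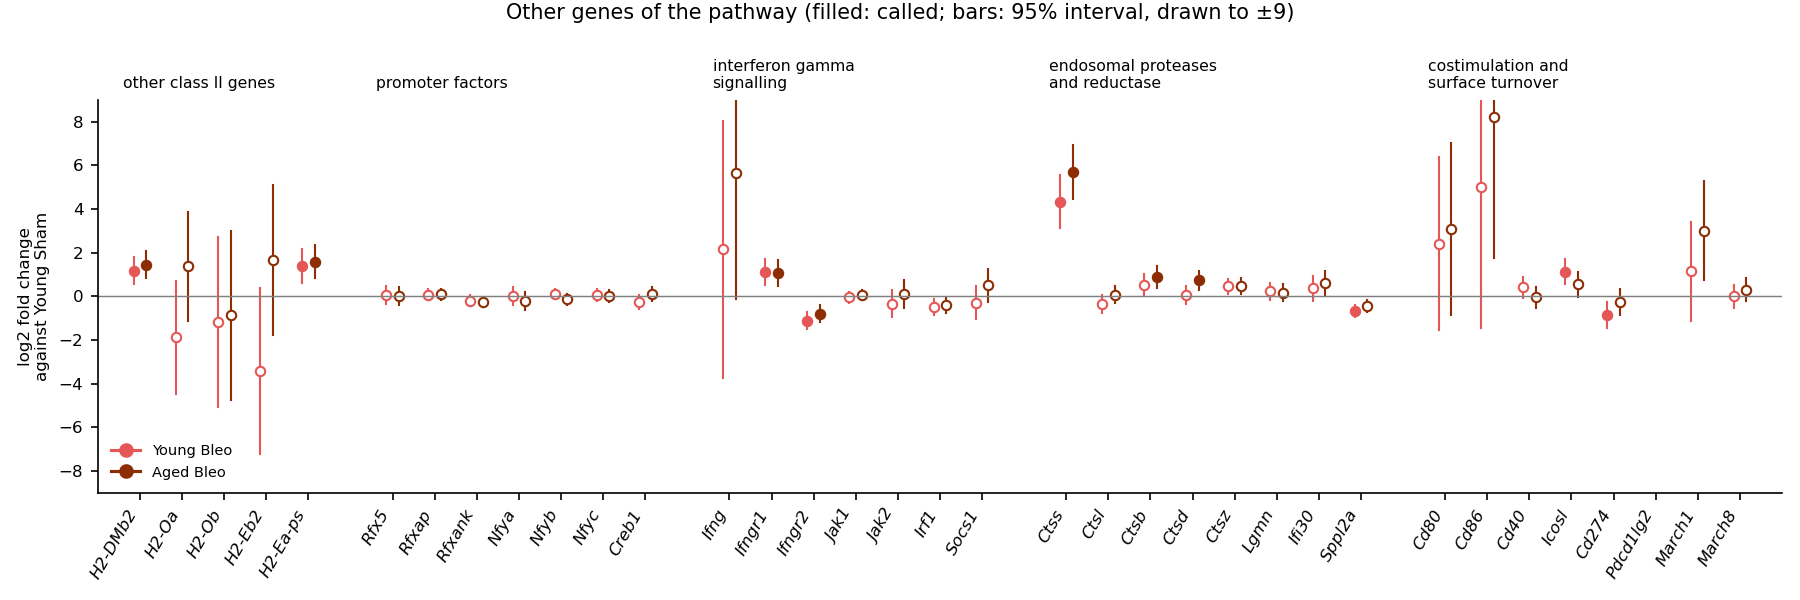
Log2 fold change against Young Sham of the other pathway genes in Young Bleo and Aged Bleo, with 95% DESeq2 intervals cut at ±9 (filled points were called, and Pdcd1lg2 had no adjusted p and is not drawn). H2-DMb2, H2-Ea-ps, Ifngr1 and Ctss are filled above 0 in both groups and Ifngr2 below 0 in both, while the 7 promoter factors lie near 0.

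The genes most like the members were sought among 13767 genes with a mean of at least 50 normalized counts, by Pearson's r with the mean of the members' centred log2 values over 16 libraries. The highest were H2-DMb2 (0.98), H2-Ea-ps (0.96), Plac8 (0.93), Mir5107 (0.92) and Clec4n (0.91). After removal of group means they were H2-DMb2 (0.97), Mir5107 (0.94), Il18bp (0.92), H2-Ea-ps (0.91) and 5033430I15Rik (0.91). Mir5107 (60812076 to 60812163 of chromosome 18) lies within Cd74 (60803848 to 60812646), so reads of the pair cannot be told apart. Clec4n, which encodes a myeloid lectin, averaged 21.9, 74.9, 357 and 1435 normalized counts in Young Sham, Aged Sham, Young Bleo and Aged Bleo. Plac8 averaged 2687, 5015, 10482 and 11180 in the same order, while Il18bp, which encodes a decoy for interleukin-18, averaged 1592, 1663, 2199 and 1798.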

How the data were processed

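Lung ECs sorted by flow cytometry were profiled by RNA-seq in 16 libraries, grouped by their titles. The authors aligned reads with STAR 2.5.2b to mm10 and counted them with featureCounts of Subread. They deposited raw counts and FPKM per gene. Strand setting, annotation release and treatment of multimapping reads are not given in the sources used here, and 2 library kits are given, SMART-Seq v4 with Nextera by the labels and TruSeq by the study's methods. Counts of all genes were fitted with DESeq2 1.42.0 in R 4.3.3 (1 model over 16 libraries, group as the only term, Wald test, unshrunken log2 fold changes, Benjamini-Hochberg adjustment over all genes tested). Calls needed adjusted p ≤ 0.05 and a log2 fold change of 0.5 or more in size. Alternatives were edgeR 4.0.16, TMM factors, a low-count filter (10 counts in 3 libraries), no outlier or independent filter, fits of the compared groups alone, limma 3.58.1 on log2(FPKM + 0.1) for genes of at least 0.5 FPKM in 3 libraries, and leaving out libraries. In simulated counts for Aged Sham against Young Sham over 26553 genes, DESeq2 recovered 60 of 100 genes changed by log2 1 and 96 of 100 changed by log2 2, with 49 false among 205 calls, and edgeR recovered 41 and 87, with 5 false among 133. Ratios to Ptprc used a pseudocount of 1 and 2-sided exact permutation tests. Promoter windows came from RefSeq. Depth was 20.9 to 71 mega-counts, and gene counts were 40.2% to 44.7% of the total behind the FPKM. The text names the 7 members and Ptprc, up to 4 called genes of each other list with its defining markers, and the 5 genes most like the members. The members and lists were chosen with earlier results of these data known. An item of the interferon gamma list is not reported here.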

Additional observations from a re-analysis of the deposited data

Results flagged for a closer look

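In Aged Bleo, library 3 lay apart below the other 3 libraries by Dixon's test for 4 of the 7 members, with 135538 normalized counts for Cd74, 27467 for H2-Aa, 6483 for H2-DMa and 631 for H2-Eb1. Over the members and Ptprc, 24 groups of 4 or 5 libraries were tested, of which chance flags about 1 in 20, and the 4 values come from 1 library and are not independent. The same library had a macrophage sum of 51053, the third highest of the 4 Aged Bleo libraries, and the highest B cell sum (4989) and endothelial sum (450969, against 316977 to 390338) of them. It also had the lowest Ptprc (117, against 371, 371 and 938) and the lowest pan-leukocyte sum (3240, against 5689 to 8136) of the 4. Kdr was at 74233 in it, against 21679, 23875 and 56732 in Aged Bleo 1, 2 and 5.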

How the results depend on the processing

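The members' calls in Young Bleo and Aged Bleo against Young Sham stayed within 1.5 times the count reported under edgeR, TMM factors, the low-count filter, no outlier or independent filter, fits of the compared groups alone and limma on FPKM (5 to 7 of 7). TMM factors moved member log2 fold changes by -0.03 to 0.04. When 1 library was left out, the number called was 2 to 7 in Young Bleo and 6 to 7 in Aged Bleo against Young Sham, 0 to 1 in Aged Sham against Young Sham and in Aged Bleo against Aged Sham, and 0 for Aged Bleo against Young Bleo and for the difference of responses. In 2 alternatives chosen after seeing the data, leaving out Aged Bleo 1 and 2 gave 0 calls in Aged Bleo against Young Sham, and leaving out Young Sham 22 and 25 gave 2 calls in Young Bleo and 3 in Aged Bleo. Fewer libraries entered these fits. Signs reversed only for uncalled values: for Aged Bleo against Young Bleo, to -0.07 (H2-Aa), -0.13, -0.04 and -0.01 (H2-Ab1) and -0.03 and -0.02 (H2-DMb1) without 1 library (ranges -0.07 to 0.33, -0.13 to 0.28 and -0.03 to 0.34), and to -0.09, -0.16 and -0.30 for these genes without Aged Bleo 1 and 2, and for the difference of responses of H2-Eb1 to 0.36 without Aged Sham 13 (range -0.82 to 0.36) and 0.02 under limma on FPKM. The cause was not tested. The ratio to Ptprc kept its direction and passed no test under a pseudocount of 5, the leukocyte list as denominator or without any 1 library, and Young Sham libraries with 0 to 66 Ptprc counts limit its precision. No paired analysis was possible because the replicate numbers do not repeat between groups.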
